A study of Homo sapiens with 6 samples.

Results

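Collagens are secreted proteins made of 3 alpha chains wound into a triple helix, each chain with a gene of its own. The chains described here were the Ensembl genes whose symbol is COL, a type number, A and a chain number, and 44 of the 40396 genes in the table met that rule. By the usual classes, 11 were fibrillar chains, 6 were the basement membrane chains of type IV, 10 were FACIT chains (fibril-associated collagens with interrupted triple helices) and 17 were others. RNA-seq was performed on cells derived from H1, a human embryonic stem cell (ESC) line, after 3 days of differentiation toward definitive endoderm (DE), the germ layer of gut, liver and pancreas. All 6 samples were grown on Matrigel with 50 ng/mL Activin A throughout and with 2.5 μM CHIR99021, an activator of Wnt signaling, for the first 24 hours. The 3 control samples received DMSO and the 3 SAR samples received 0.5 μM saracatinib (SAR), an inhibitor of Src family kinases, over all 3 days. At this dose the paper reports no effective inhibition of Src phosphorylation, but less phosphorylation of focal adhesion kinase (FAK). The comparison asks how SAR changed collagen gene expression during DE differentiation. Only the H1 line was sequenced, and whether the libraries came from separate cultures is not stated, so the p-values measure the spread between these samples, which may be technical.

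Fibrillar collagens form the ropes of connective tissue, with type I and type II as the bulk and type V and type XI as chains that start and thin the fibrils. Type IV collagen forms the sheet-like network of basement membranes, the layer on which epithelia rest, and Matrigel, the coating of these plates, is itself an extract of such a membrane. FACIT chains sit on the surface of fibrils, and type VI forms beaded filaments around cells. Chains of a type usually combine with fixed partners, so a partner whose message is scarce can limit the trimer that cells are able to build.

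The table held 1 column of FPKM (fragments per kilobase of gene scaled by the fragments of the whole library) for each library, a unit that allows levels to be compared between genes. Read counts recovered from the FPKM gave totals between 18877964 and 24419937 in control and between 16681280 and 18389543 with SAR. Control replicate 1 stood apart at low levels, with 33169 genes above 0 FPKM against 29506 to 30109 in the other 5 libraries. The day 3 cells expressed all 8 DE markers tested, and with SAR SOX17, FOXA2 and HHEX were upregulated, GATA4, EOMES and CER1 were downregulated, and CXCR4 and GATA6 were lower at a smaller fold, so that 3 of 8 were higher and 5 lower. Differences were tested with limma on log2(FPKM + 0.1), which makes the fold change of low genes smaller than the ratio of their means, in the 16371 genes that averaged 0.5 FPKM or more over the 6 libraries. Genes are called upregulated or downregulated where the adjusted p was under 0.05 and the log2 fold change lay beyond 1 or -1, and higher or lower where the adjusted p was under 0.05 at any fold. Over all 16371 genes the median log2 fold change was 0.12 as deposited and 0.00 after median-ratio rescaling of the libraries. Unless another setting is named, the fold changes below are as deposited. The 0.12 was not taken off them, so they are to be read beside it.

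Of the 44 chains, 30 passed the minimum of 0.5 FPKM and were tested, and the other 14 were not. SAR upregulated 3 chains, COL4A3, COL4A4 and COL2A1, beside 3.41% of all tested genes. It downregulated 1 chain, COL5A2, beside 1.58% of all tested genes. COL4A3 and COL4A4, with control means of 0.295 and 0.493 FPKM, passed the minimum only through the SAR libraries. Their part in the count of upregulated chains therefore depends on the filter. At any fold 9 of the 30 were higher, beside 23.7% of all tested genes, and 7 were lower, beside 9.55%, so that 16 of 30 passed the test, beside 33.3%. An unadjusted p under 0.05 was found for the same number of chains, 16 of 30, beside 46.1% of all tested genes. After median-ratio rescaling 6 were higher and 7 lower, beside 13.8% and 15.5% of all tested genes, and 2 were downregulated (COL5A2 and COL9A2), beside 2.21%, while the 3 upregulated chains were the same, beside 2.46%. The 3 SAR libraries lay above the 3 control libraries for 10 chains and below them for 8, where 35.5% and 15.2% of all tested genes did so, and the 18 chains without overlap stood beside 50.7% of all tested genes. The median log2 fold change of the 30 chains was 0.01, and -0.10 after rescaling. In bulk RNA, fewer cells that express a chain cannot be told apart from less RNA per cell.

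**Figure D1:**
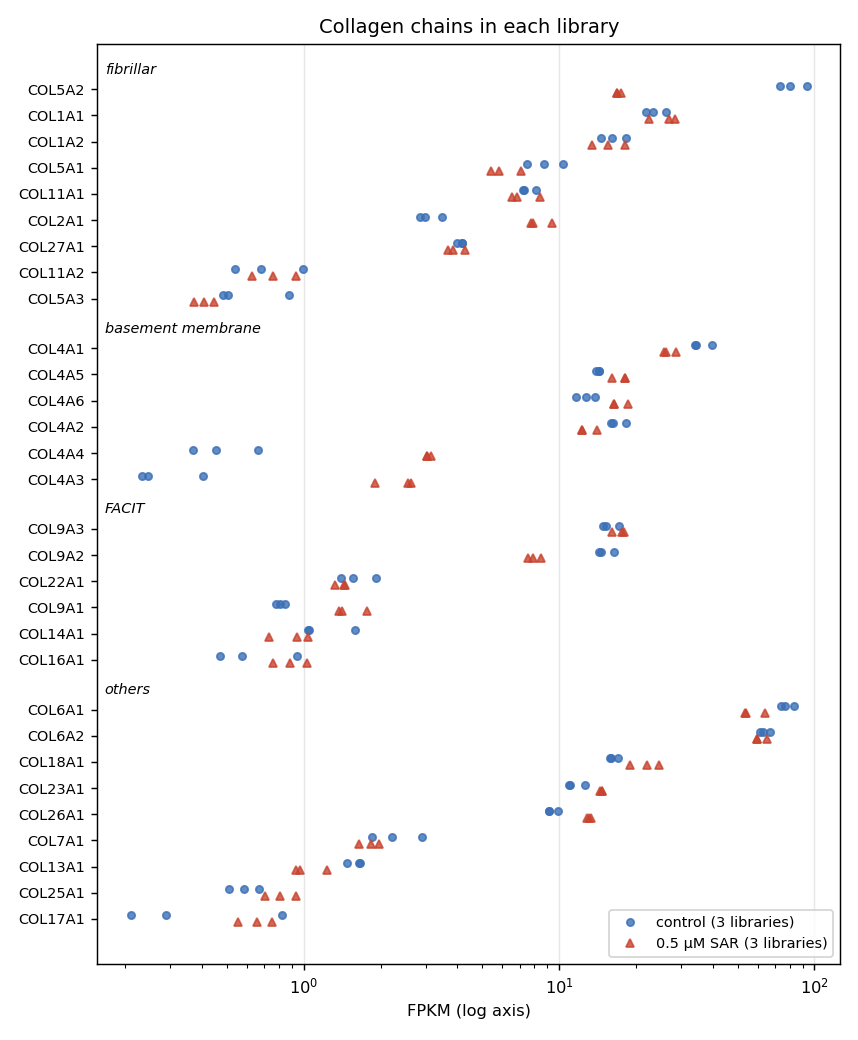
FPKM (log axis) of the 30 tested collagen chains in each of the 3 control libraries (circles) and 3 SAR libraries (triangles), by class and by mean level within a class. COL5A2 sits between 73.1 and 93.2 in control and between 16.8 and 17.5 with SAR, and the SAR points of COL4A3, COL4A4 and COL2A1 lie to the right of all their control points.

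Type IV collagen has 6 genes that lie in 3 head-to-head pairs, in which the genes of a pair start near each other and are read in opposite directions. In GENCODE 29 (GRCh38), COL4A1 (chr13:110148963-110307233, minus strand) is paired with COL4A2 (chr13:110305812-110513209, plus strand). COL4A3 (chr2:227164565-227314792, plus strand) is paired with COL4A4 (chr2:227002711-227164453, minus strand). COL4A5 (chrX:108439844-108697545, plus strand) is paired with COL4A6 (chrX:108155607-108439497, minus strand). The RefSeq start sites of a pair were 127 bases apart for COL4A1 and COL4A2, 380 bases for COL4A5 and COL4A6, and 419 bases for COL4A3 and COL4A4. COL4A6 has 2 RefSeq windows, and the window nearest to COL4A5 was used here and below. The windows below run from 250 bases before to 50 bases after the start site, 5′ to 3′ on the strand of the gene, from RefSeq on GRCh38.p14. They are shown because the 2 genes of each pair moved in the same direction with SAR. Capitals mark the bases that lie in the window of the partner gene too, 82 for COL4A3 and COL4A4, 226 for COL4A1 and COL4A2, and 121 for COL4A5 and COL4A6.
COL4A3, chr2:227164374-227164673, plus strand: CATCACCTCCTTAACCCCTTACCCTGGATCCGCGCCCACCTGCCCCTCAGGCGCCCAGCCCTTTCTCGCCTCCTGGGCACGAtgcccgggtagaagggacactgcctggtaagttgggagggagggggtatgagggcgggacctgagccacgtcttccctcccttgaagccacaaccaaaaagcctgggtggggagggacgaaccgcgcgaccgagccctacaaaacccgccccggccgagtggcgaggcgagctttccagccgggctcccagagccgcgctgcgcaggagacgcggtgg
COL4A4, chr2:227164156-227164455, minus strand: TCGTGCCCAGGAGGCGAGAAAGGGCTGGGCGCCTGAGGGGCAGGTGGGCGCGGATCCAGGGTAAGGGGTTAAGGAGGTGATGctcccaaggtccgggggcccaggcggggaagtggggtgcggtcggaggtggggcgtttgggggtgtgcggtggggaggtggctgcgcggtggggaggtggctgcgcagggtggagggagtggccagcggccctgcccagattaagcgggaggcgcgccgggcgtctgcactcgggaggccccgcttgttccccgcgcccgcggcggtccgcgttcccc
COL4A1, chr13:110307108-110307407, minus strand: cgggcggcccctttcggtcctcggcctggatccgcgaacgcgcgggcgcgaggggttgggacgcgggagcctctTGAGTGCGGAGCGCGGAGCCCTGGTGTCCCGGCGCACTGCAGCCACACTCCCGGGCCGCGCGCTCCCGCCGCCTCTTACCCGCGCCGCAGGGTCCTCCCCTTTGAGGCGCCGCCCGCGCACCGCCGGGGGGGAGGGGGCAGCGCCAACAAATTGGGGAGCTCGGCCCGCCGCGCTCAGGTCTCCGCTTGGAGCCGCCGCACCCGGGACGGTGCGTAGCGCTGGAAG
COL4A5, chrX:108439588-108439887, plus strand: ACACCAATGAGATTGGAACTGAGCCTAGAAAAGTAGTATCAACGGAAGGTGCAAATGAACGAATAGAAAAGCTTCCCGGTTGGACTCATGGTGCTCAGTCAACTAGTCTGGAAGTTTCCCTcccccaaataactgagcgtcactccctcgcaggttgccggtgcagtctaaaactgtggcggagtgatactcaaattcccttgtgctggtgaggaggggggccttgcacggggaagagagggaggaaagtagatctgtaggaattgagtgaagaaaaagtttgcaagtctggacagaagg

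The windows of the 6 genes differed in base composition by pair, with a GC content of 67.7% for COL4A3, 74.0% for COL4A4, 76.7% for COL4A1, 77.7% for COL4A2, 49.3% for COL4A5 and 43.7% for COL4A6, and a median of 58.7% over the 35116 windows in the table. The GC box GGGCGG, searched on both strands, occurred 2 times in the windows of COL4A3 and COL4A1, 1 time in that of COL4A2 and 0 times in the other 3, and 45.0% of all windows held it. CCAAT occurred 2 times in the window of COL4A5, 3 times in that of COL4A6, 1 time each in those of COL4A1 and COL4A2 and 0 times in those of COL4A3 and COL4A4, and 34.6% of all windows held it. Both matches of COL4A5 and 2 of the 3 of COL4A6 were the same sites, in the bases that these windows share, as were the CCAAT match of COL4A1 and COL4A2 and 1 GC box of each. The TATA box TATAAA, the forkhead core TGTTTAC and the TEAD core GGAATG were at 0 in all 6 windows and in 11.5%, 3.42% and 14.0% of all windows. The SOX core ACAAT occurred 1 time, in the window of COL4A6, and 27.4% of all windows held it. No match of a motif overlapped a match of another in these windows. A match describes the letters and not a bound site.

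COL4A3 and COL4A4, chains of the type IV network of the kidney filter, lung and inner ear, had the largest increases of the 30 tested chains. COL4A3 (ENSG00000169031) was at 0.405, 0.233 and 0.246 FPKM in control replicates 1, 2 and 3 and at 2.64, 2.57 and 1.90 FPKM in SAR replicates 1, 2 and 3. COL4A4 (ENSG00000081052) was at 0.660, 0.367 and 0.453 FPKM in control and at 3.15, 3.05 and 3.04 FPKM with SAR. Every SAR library lay above every control library for both genes, and control replicate 1 was the highest control for both. The ratio of the group means was 8.03 for COL4A3 and 6.24 for COL4A4. On the log2(FPKM + 0.1) scale COL4A3 rose by 2.66 (SE 0.228, adjusted p = 0.000737, limma) and COL4A4 by 2.45 (SE 0.188, adjusted p = 0.000522). These values rested on 57 to 109 recovered reads in control and 429 to 541 with SAR for COL4A3, and on 101 to 171 and 611 to 661 for COL4A4. With control means of 0.295 and 0.493 FPKM, both genes passed the minimum of 0.5 FPKM only through the SAR libraries. With a pseudocount of 1 in place of 0.1 the increases were 1.37 and 1.45.

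COL4A1 and COL4A2, which make the network present in nearly all basement membranes, were lower with SAR. COL4A1 (ENSG00000187498), the most abundant type IV chain, was at 34.0, 39.7 and 34.4 FPKM in control and at 25.8, 26.2 and 28.8 FPKM with SAR. COL4A2 (ENSG00000134871) was at 16.2, 18.2 and 16.0 FPKM in control and at 12.3, 12.3 and 14.0 FPKM with SAR. Neither gene's groups overlapped. COL4A1 fell by 0.42 on the log2 scale (SE 0.0787, adjusted p = 0.00916, limma) and COL4A2 by 0.38 (SE 0.0798, adjusted p = 0.0126).

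COL4A5 and COL4A6, partners in the type IV network of smooth muscle and some epithelia, were higher with SAR. COL4A5 (ENSG00000188153) was at 14.3, 14.3 and 14.0 FPKM in control and at 18.1, 16.1 and 18.1 FPKM with SAR. COL4A6 (ENSG00000197565) was at 11.7, 13.8 and 12.7 FPKM in control and at 16.4, 16.5 and 18.6 FPKM with SAR. The SAR libraries lay above the control libraries for both. COL4A6 rose by 0.43 on the log2 scale (SE 0.0825, adjusted p = 0.00966, limma). COL4A5 rose by 0.29 (SE 0.0630, adjusted p = 0.0145), and by 0.17 with an adjusted p of 0.0916 after median-ratio rescaling. In control the order of the 6 levels was COL4A1, COL4A2, COL4A5, COL4A6, COL4A4 and COL4A3, and with SAR it was COL4A1, COL4A5, COL4A6, COL4A2, COL4A4 and COL4A3. Of neighbors in that order, COL4A4 and COL4A3 overlapped in control and COL4A5 and COL4A6 with SAR.

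**Figure D2:**
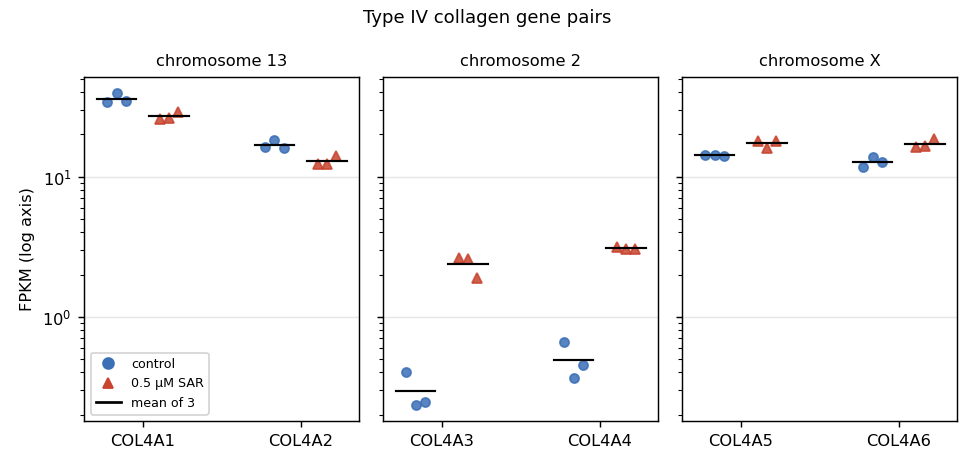
FPKM (log axis) of the 6 type IV collagen genes in 3 control libraries (circles) and 3 SAR libraries (triangles), 1 panel for each head-to-head pair, with a line at the mean of 3. The COL4A3 and COL4A4 points stand at 0.233 to 0.660 in control and at 1.90 to 3.15 with SAR, while the other pairs move by less than the distance between these groups.

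Among the fibrillar chains, 9 of 11 were tested, with 1 upregulated and 1 downregulated, beside 3.41% and 1.58% of all tested genes. At any fold 1 of the 9 was higher and 2 were lower, beside 23.7% and 9.55% of all tested genes. COL5A2 (ENSG00000204262, chr2:189031896-189225312, minus strand) codes for the alpha 2 chain of type V collagen, which starts type I fibrils. It was at 73.1, 93.2 and 80.4 FPKM in control and at 16.8, 16.9 and 17.5 FPKM with SAR. All control libraries were far above all SAR libraries, and the ratio of the control mean to the SAR mean was 4.81. COL5A2 fell by 2.25 on the log2 scale (SE 0.0898, adjusted p = 7.96e-05, limma) and rested on 11108 to 16658 recovered reads in control and 2055 to 2362 with SAR. It ranked 1 of the 44 chains by mean FPKM in control and 9 with SAR.

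COL5A1, the partner of COL5A2 in most type V trimers, was at 7.47, 10.3 and 8.71 FPKM in control and at 5.42, 5.83 and 7.08 FPKM with SAR. Its groups did not overlap, and it was lower by 0.52 on the log2 scale (SE 0.142, adjusted p = 0.0306, limma). That call was lost without control replicate 2 or 3 or SAR replicate 1 or 2, and with no filter on low genes, with an adjusted p of at most 0.0892. COL5A3, the least abundant type V chain, was at 0.622 ± 0.220 FPKM in control and 0.408 ± 0.0363 FPKM with SAR (mean ± SD, n = 3 in each group here and below), with an adjusted p of 0.245.

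COL2A1 (ENSG00000139219, chr12:47972965-48004554, minus strand), the main fibrillar chain of cartilage and notochord, was upregulated. It was at 3.48, 2.99 and 2.85 FPKM in control and at 7.89, 7.79 and 9.37 FPKM with SAR. The lowest SAR library was above the highest control library, and the ratio of the means was 2.69. COL2A1 rose by 1.40 on the log2 scale (SE 0.106, adjusted p = 0.000518, limma). Of 5 notochord markers TBXT was upregulated, from 3.51 ± 0.245 to 11.7 ± 2.15 FPKM. NOTO, at 0.0656 ± 0.0585 and 1.95 ± 0.691 FPKM, and CHRD, at 0.274 ± 0.122 and 2.10 ± 0.228 FPKM in control and SAR, passed the minimum only through the SAR libraries. The other 2 markers were not tested. SHH was at 0.0953 ± 0.0645 and 0.800 ± 0.0493 FPKM without overlap, and NOG at 0.104 ± 0.0959 and 0.131 ± 0.0948 FPKM with overlap. The 5 had a summed level of 3.67 to 4.69 FPKM in control and 14.1 to 20.04 FPKM with SAR, most of it TBXT. Of 5 cartilage markers 2 were tested. SOX9 was upregulated, from 1.71 ± 0.234 to 3.95 ± 0.0935 FPKM, and CHAD, at 1.17 ± 0.264 and 0.953 ± 0.501 FPKM, gave no call. ACAN was at 0.188 and 0.175 FPKM, MATN1 at 0.102 and 0.0501 FPKM and HAPLN1 at 0.170 and 0.0961 FPKM in the means of control and SAR. The summed level of the 5 was 3.09 to 3.58 FPKM in control and 4.87 to 5.91 FPKM with SAR, and only SOX9 had a higher mean with SAR. For ACAN and MATN1 the control mean rested on control replicate 1. ACAN was at 0.335, 0.131 and 0.0971 FPKM in control and at 0.154, 0.205 and 0.164 FPKM with SAR. MATN1 was at 0.198, 0.0623 and 0.0460 FPKM in control and at 0.0911, 0 and 0.0591 FPKM with SAR. For HAPLN1 and CHAD the highest control was replicate 2. The part of notochord or cartilage cells in the change of COL2A1 was not tested.

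The type I chains, the bulk of bone and skin collagen, gave no call. COL1A1 was at 26.1, 21.8 and 23.4 FPKM in control and at 22.4, 27.0 and 28.4 FPKM with SAR, with overlapping groups and a log2 difference of 0.12 (95% interval -0.13 to 0.38, adjusted p = 0.399, limma). COL1A2 was at 14.6, 18.3 and 16.2 FPKM in control and at 13.5, 15.5 and 18.1 FPKM with SAR, with a log2 difference of -0.06 (95% interval -0.36 to 0.24, adjusted p = 0.732). These intervals leave out a change of the size seen for COL5A2 or COL2A1. The type XI chain COL11A1, which thins type II fibrils, was at 7.54 ± 0.515 and 7.27 ± 1.03 FPKM, COL27A1 at 4.11 ± 0.118 and 3.94 ± 0.319 FPKM, and COL11A2 at 0.738 ± 0.231 and 0.773 ± 0.152 FPKM in control and SAR, and none of the 3 passed the test. COL3A1, the main partner of type I in soft tissue and the neighbor of COL5A2 on the chromosome (chr2:188974320-189012746, plus strand), was not tested. It was at 0.209, 0.0121 and 0 FPKM in control and at 0.00887, 0 and 0.0161 FPKM with SAR, which was 0 to 31 recovered reads a library with the 31 in control replicate 1. Of the 7 fibroblast and mesenchyme markers, LUM, DCN and PRRX1 had means under 0.05 FPKM in both groups, while THY1 was at 5.55 and 5.73 FPKM, TWIST1 at 2.36 and 3.13 FPKM and PDGFRB at 0.956 and 1.22 FPKM in the means of control and SAR, and the summed level of the 7 was 7.18 to 10.9 FPKM in control and 9.95 to 10.3 FPKM with SAR.

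**Figure D3:**
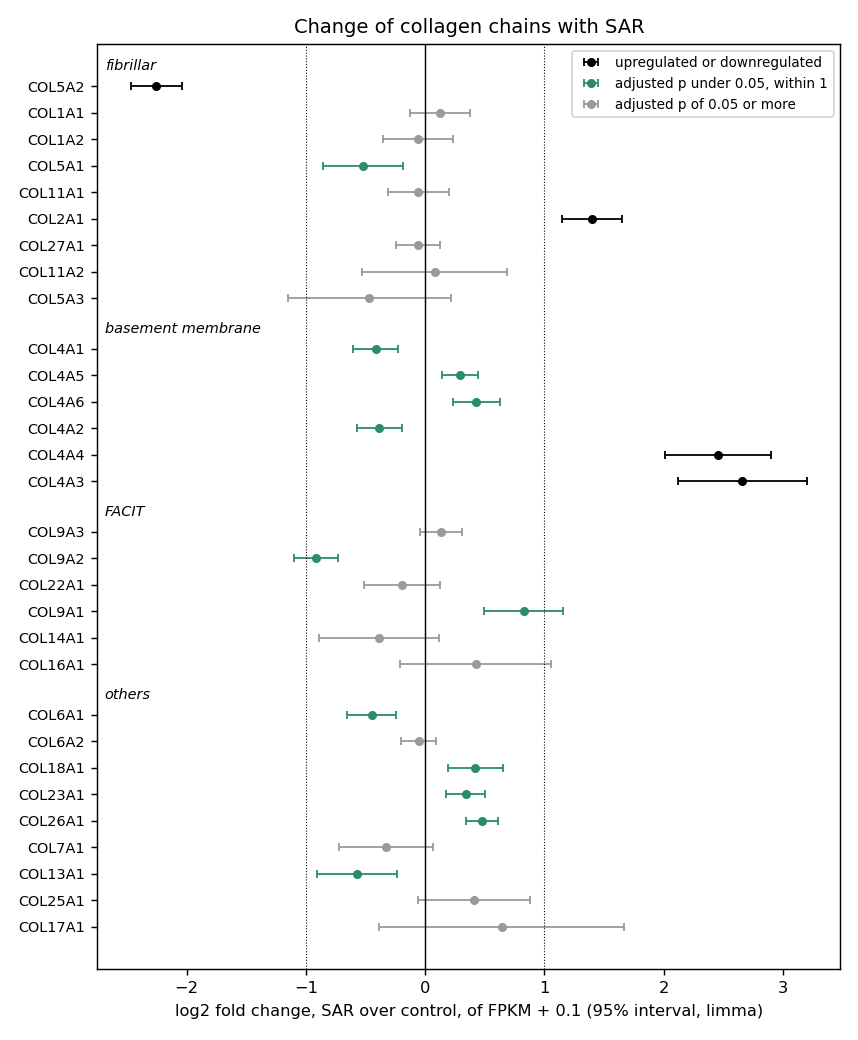
Log2 fold change of each tested collagen chain, SAR over control, on the log2(FPKM + 0.1) scale, with 95% intervals from limma, and dotted lines at -1 and 1. The black points are the called chains (COL5A2 at -2.25, COL2A1 at 1.40, COL4A4 at 2.45 and COL4A3 at 2.66), COL9A2 at -0.91 lies just inside the threshold, and gray intervals span 0.

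Of the 10 FACIT chains 6 were tested, and limma called 0 upregulated and 0 downregulated, beside 3.41% and 1.58% of all tested genes. The voom test on recovered counts called 0 as well, where over 16358 genes it called 691 upregulated and 296 downregulated. At any fold 1 of the 6 was higher and 1 lower, beside 23.7% and 9.55% of all tested genes. An unadjusted p under 0.05 was found for 2 of the 6, beside 46.1% of all tested genes. Both of these were type IX chains, which coat type II fibrils in cartilage and the vitreous. COL9A2 (ENSG00000049089, chr1:40300487-40317813, minus strand) was at 14.4, 16.5 and 14.5 FPKM in control and at 8.53, 7.53 and 7.92 FPKM with SAR. It was lower in all 3 SAR libraries, by 0.91 on the log2 scale (SE 0.0778, adjusted p = 0.000727, limma), and crossed the threshold of 1 after median-ratio rescaling, at -1.03. COL9A1 was at 0.844, 0.805 and 0.780 FPKM in control and at 1.38, 1.42 and 1.76 FPKM with SAR, and rose by 0.82 (SE 0.141, adjusted p = 0.00648).

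COL9A3, the remaining type IX chain and the most abundant FACIT chain, was at 17.2, 14.8 and 15.2 FPKM in control and at 18.0, 16.2 and 17.6 FPKM with SAR. Its groups overlapped, and the log2 difference was 0.13 (95% interval -0.05 to 0.31, adjusted p = 0.213, limma). So of 3 chains that share a trimer, COL9A2 was lower, COL9A1 was higher and COL9A3 did not pass the test. The other tested FACIT chains, COL22A1, COL14A1 and COL16A1, had group means between 0.661 and 1.63 FPKM and adjusted p of 0.303, 0.195 and 0.253.

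Of the 17 other chains 9 were tested, and limma called 0 upregulated and 0 downregulated, beside 3.41% and 1.58% of all tested genes. The voom test called 0 as well, where over 16358 genes it called 691 upregulated and 296 downregulated. At any fold 3 were higher and 2 lower, beside 23.7% and 9.55% of all tested genes. An unadjusted p under 0.05 was found for 5 of the 9, beside 46.1%. COL6A1 and COL6A2 (type VI) were the most abundant. COL6A1 was at 73.6, 83.2 and 76.9 FPKM in control and at 53.7, 53.8 and 64.2 FPKM with SAR, and was lower in all 3 SAR libraries, by 0.45 on the log2 scale (SE 0.0868, adjusted p = 0.00985, limma). COL6A2 was at 61.2, 67.0 and 63.0 FPKM in control and at 59.3, 59.8 and 65.0 FPKM with SAR, with overlapping groups and a log2 difference of -0.05 (95% interval -0.20 to 0.09, adjusted p = 0.517). Type VI trimers need a further chain, and COL6A3, COL6A5 and COL6A6, which can take that place, were all under the minimum of 0.5 FPKM, at 0.122 ± 0.0906, 0.0592 ± 0.0932 and 0.357 ± 0.114 FPKM in control and 0.136 ± 0.00797, 0.00587 ± 0.00568 and 0.204 ± 0.0522 FPKM with SAR.

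COL18A1, a basement membrane collagen and the source of endostatin, was at 16.2 ± 0.641 FPKM in control and 21.9 ± 2.88 FPKM with SAR, higher by 0.42 on the log2 scale (SE 0.0982, adjusted p = 0.0182, limma). In GENCODE 29, 16.4% of its exon bases lie opposite exons of SLC19A1, and since the strand setting of the counting is not stated the reads of the 2 genes there cannot be told apart. Among the transmembrane chains, COL23A1 was at 11.6 ± 0.963 and 14.7 ± 0.152 FPKM and was higher by 0.34 (adjusted p = 0.0117), and COL13A1, found at cell adhesion sites and the neuromuscular junction, was at 1.59 ± 0.102 and 1.04 ± 0.165 FPKM and was lower by 0.57 (adjusted p = 0.0220). COL26A1 was at 9.38 ± 0.420 FPKM in control and 13.1 ± 0.218 FPKM with SAR, higher by 0.48 (SE 0.0562, adjusted p = 0.00190). After median-ratio rescaling COL18A1 and COL23A1 no longer had an adjusted p under 0.05, while COL26A1 and COL13A1 did. COL13A1 lost it under 7 of the 14 alternatives, with an adjusted p of 0.0521 with a replicate block, 0.0531 with no filter and at most 0.0732 when a control library or SAR replicate 1 or 2 was left out. COL7A1, the chain of the anchoring fibrils of skin, COL17A1, a hemidesmosome protein, and COL25A1 did not pass the test, with adjusted p of 0.169, 0.285 and 0.147. COL17A1 was at 0.823, 0.211 and 0.288 FPKM in control and at 0.755, 0.659 and 0.552 FPKM with SAR, so its groups overlapped through control replicate 1. That library was the highest control for all 5 tested chains with a mean under 1 FPKM.

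The 14 chains under the minimum were COL8A2, COL6A6, COL21A1, COL12A1, COL15A1, COL24A1, COL28A1, COL6A3, COL8A1, COL20A1, COL19A1, COL10A1, COL3A1 and COL6A5. Their control means ran from 0.0453 FPKM for COL19A1 to 0.357 FPKM for COL6A6. Control replicate 1 was the highest of the 3 control libraries for all 14, beside 60.7% of the 24025 genes under 0.5 FPKM. It was the highest of all 6 for 12, beside 32.2% of those 24025 genes. The median ratio of control replicate 1 to the mean of the other controls was 2.68 over the 14 chains and 1.11 over those 24025 genes. COL8A2, a network-forming chain of the cornea and vessel wall, was at 0.264, 0.184 and 0.216 FPKM in control and at 0.360, 0.417 and 0.582 FPKM with SAR. It and COL12A1, at 0.443, 0.137 and 0.183 FPKM in control and 0.0890, 0.131 and 0.0721 FPKM with SAR, were the chains of these 14 whose groups did not overlap. The groups did not overlap for 50.7% of all tested genes, and that share is not given here for genes under the minimum. Of the tested chains, the lowest was COL5A3 with a mean of 0.515 FPKM, and the highest of those left out was COL8A2 with 0.337 FPKM.

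The ratio of 2 chains within a library does not depend on how libraries are scaled. For 9 ratios of partner chains, the groups were compared with two-sided exact permutation tests, which cannot go below 0.1 with 3 libraries against 3 and so cannot pass 0.05, and p-values were adjusted over the 9. COL5A2 over COL5A1 was 9.35 ± 0.387 in control and 2.83 ± 0.319 with SAR, without overlap (exact p = 0.1, adjusted 0.18). COL9A2 over COL9A3 was 0.967 ± 0.136 and 0.463 ± 0.0114, and COL9A1 over COL9A3 was 0.0515 ± 0.00255 and 0.0881 ± 0.0121, both with the same p. COL6A1 over COL6A2 was 1.22 ± 0.0192 in control, above 1 in all 3 libraries, and 0.930 ± 0.0485 with SAR, below 1 in all 3, again without overlap. COL4A1 over COL4A5, which sets chains of 2 type IV pairs against each other, was 2.54 ± 0.211 and 1.55 ± 0.107 without overlap.

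Within the 3 type IV pairs and type I the ratios overlapped between the groups. COL4A1 over COL4A2 was 2.14 ± 0.0424 in control and 2.10 ± 0.0424 with SAR (exact p = 0.3, adjusted 0.338). COL4A5 over COL4A6 was 1.12 ± 0.0966 and 1.02 ± 0.0729 (exact p = 0.3), COL4A3 over COL4A4 was 0.597 ± 0.0482 and 0.768 ± 0.124 (exact p = 0.2), and COL1A1 over COL1A2 was 1.48 ± 0.301 and 1.66 ± 0.0827 (exact p = 0.4). With 3 libraries a group, these p-values do not show that the ratios were the same.

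**Figure D4:**
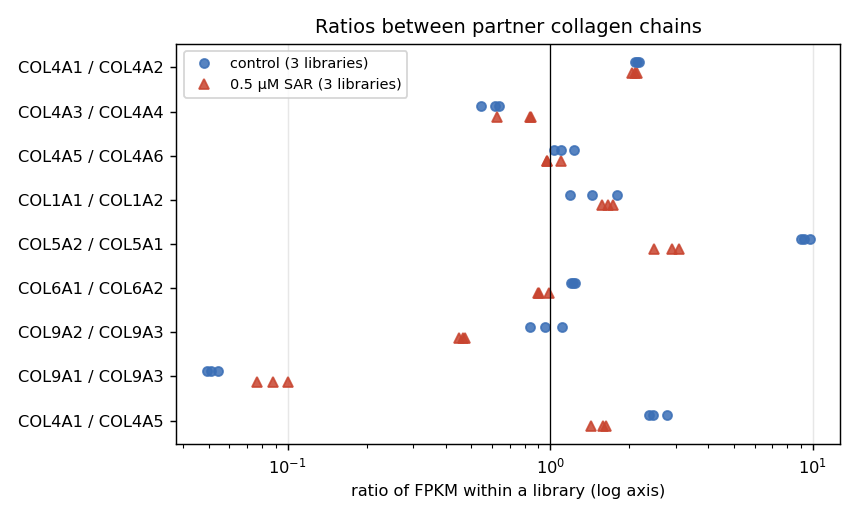
Ratio of the FPKM of 2 partner chains within each library (log axis), for 3 control libraries (circles) and 3 SAR libraries (triangles). The groups stand apart for COL5A2 / COL5A1, COL6A1 / COL6A2, COL9A2 / COL9A3, COL9A1 / COL9A3 and COL4A1 / COL4A5, and overlap for the other 4 ratios.

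The FPKM of the 44 chains summed to 434, 475 and 437 in control replicates 1, 2 and 3 and to 352, 359 and 398 in SAR replicates 1, 2 and 3. Without COL5A2 the sums were 361, 382 and 357 in control and 335, 342 and 380 with SAR, which overlapped. COL5A2 made up 18.3% ± 1.39 of the collagen FPKM in control and 4.63% ± 0.195 with SAR. All fibrillar chains made up 32.8% ± 0.904 and 23.2% ± 0.955, type IV chains 17.9% ± 0.242 and 21.6% ± 0.567, FACIT chains 8.01% ± 0.651 and 8.23% ± 0.552, and the others 41.2% ± 0.514 and 47.0% ± 0.175. The summed FPKM of type IV chains was 80.5 ± 5.24 in control and 79.8 ± 4.02 with SAR. These shares add up to the whole, so a smaller share of COL5A2 raises the others, and an FPKM sum is not a count of reads. No test was made of the sums.

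**Figure D5:**
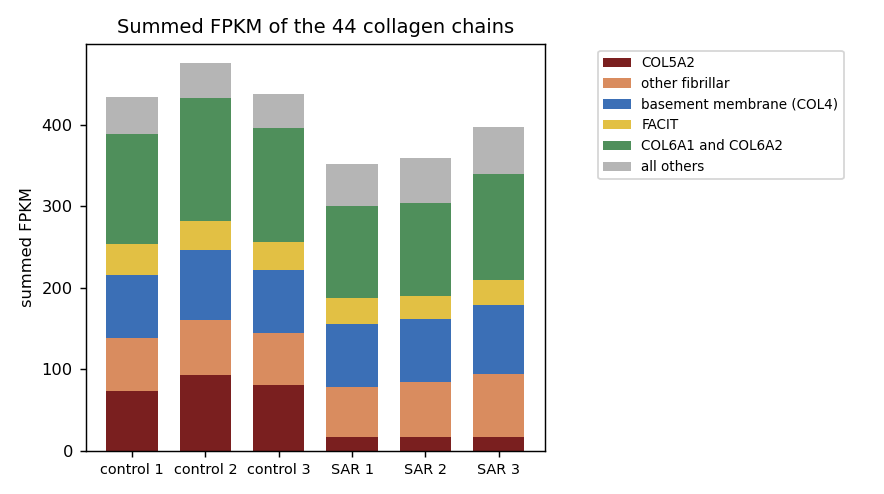
Summed FPKM of the 44 collagen chains in each of the 6 libraries, stacked by class with COL5A2 and the pair COL6A1 and COL6A2 shown apart. The COL5A2 block is 73.1 to 93.2 FPKM high in control and 16.8 to 17.5 with SAR, and the type IV block is of like height in all 6 bars.

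Genes that act on collagen were followed as lists. Their counts are to be read beside the shares of all tested genes, which were 3.41% upregulated, 1.58% downregulated, 23.7% higher, 9.55% lower and 46.1% at an unadjusted p under 0.05, and their medians beside 0.12. Of 21 genes for modification and folding of the chains 20 were tested, and limma called 0 upregulated or downregulated, as did voom, while 5 of 20 were higher and 1 lower at any fold and 7 of 20 had an unadjusted p under 0.05. The smallest adjusted p belonged to P3H4, a partner of lysyl hydroxylase, at 5.35 ± 0.317 FPKM in control and 7.87 ± 0.265 FPKM with SAR (log2 difference 0.55, adjusted p = 0.00221, limma), to the prolyl 3-hydroxylase P3H3 (0.47, adjusted p = 0.00531) and to the foldase FKBP10 (0.28, adjusted p = 0.0119). The median log2 fold change of the 20 was 0.03. Of 14 genes for procollagen processing and cross-linking 12 were tested, with 0 called by limma or voom. Of the 12, 4 were higher, 1 was lower and 5 had an unadjusted p under 0.05. The lysyl oxidases LOXL1, at 3.21 ± 0.132 and 4.84 ± 0.338 FPKM, and LOX, at 3.59 ± 0.784 and 6.34 ± 1.06 FPKM, were higher by 0.58 and 0.81 (adjusted p = 0.00290 and 0.0138), and PCOLCE, which helps cleave the procollagen tail, was higher by 0.45 (adjusted p = 0.00399). The median of the 12 was 0.19.

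Of 13 collagen receptors 7 were tested, with 0 called by limma or voom, 1 higher, 1 lower and 3 of 7 at an unadjusted p under 0.05, where 46.1% of all tested genes were. ITGB1, the beta chain of the collagen-binding integrins, was at 39.1 ± 1.31 FPKM in control and 27.0 ± 2.15 FPKM with SAR and fell by 0.54 (SE 0.0695, adjusted p = 0.00263, limma). OSCAR, a collagen receptor of myeloid cells, was at 1.11 ± 0.244 and 1.80 ± 0.255 FPKM and rose by 0.67 (adjusted p = 0.0342). The alpha chains ITGA1, ITGA10 and ITGA11 and the receptor DDR2 were under the minimum, with control means between 0.134 and 0.228 FPKM. Of the 9 other basement membrane genes, all tested, limma and voom called 0, with 1 higher, 2 lower and 3 of 9 at an unadjusted p under 0.05, again beside 46.1%. The laminin chain LAMB1 rose by 0.57 (adjusted p = 0.00148) from 8.09 ± 0.0618 to 12.1 ± 0.714 FPKM, while perlecan (HSPG2) fell by 0.77 (adjusted p = 0.0436) and LAMC1 by 0.36 (adjusted p = 0.0457).

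Of 16 proteoglycans and glycoproteins that sit on fibrils 5 were tested, with 1 upregulated and 1 downregulated. BGN (biglycan), a small proteoglycan that binds fibrils, was at 1.73, 1.16 and 1.30 FPKM in control and at 5.91, 5.92 and 7.60 FPKM with SAR, and rose by 2.14 on the log2 scale (SE 0.165, adjusted p = 0.000522, limma). MATN3, a matrilin that links type IX collagen to other matrix of cartilage, was at 30.1, 37.5 and 34.1 FPKM in control and at 15.2, 12.3 and 13.1 FPKM with SAR, and fell by 1.31 (SE 0.107, adjusted p = 0.000656). Of 14 transcription factors known to act on collagen genes 11 were tested, with 2 of 11 upregulated, beside 3.41% of all tested genes, 0 downregulated, 4 higher, beside 23.7%, 1 lower, beside 9.55%, and 5 at an unadjusted p under 0.05. The voom test gave the same counts, 2 and 0, where over 16358 genes it called 691 upregulated and 296 downregulated. SOX9, an activator of COL2A1, was at 1.90, 1.45 and 1.77 FPKM in control and at 3.87, 3.92 and 4.05 FPKM with SAR, and rose by 1.17 (SE 0.110, adjusted p = 0.000970). LMX1B, known to act on COL4A3 and COL4A4 in kidney podocytes, was at 0.799, 0.845 and 1.01 FPKM in control and at 2.08, 1.80 and 1.95 FPKM with SAR, and rose by 1.06 (SE 0.130, adjusted p = 0.00221). With a pseudocount of 1 neither passed a log2 fold change of 1, and without control replicate 1 or after median-ratio or quantile scaling LMX1B did not. Whether these factors act on collagen genes in these cells was not tested.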

How the data were processed

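RNA-seq of 3 control and 3 SAR samples was analysed, grouped by the treatment in the sample labels. The authors selected mRNA with oligo(dT) beads, sequenced paired-end libraries and deposited FPKM for 40396 Ensembl genes, 1 column per library and not pooled. The submitters' processing notes name HISAT2, featureCounts (Subread), DESeq2 and GRCh38.p13, while versions, annotation release and strand setting are not given in the sources used here.

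Because FPKM are not counts, limma 3.58.1 in R 4.3.3 (lmFit, eBayes with trend) was run on log2(FPKM + 0.1), keeping the 16371 genes that averaged 0.5 FPKM or more, with Benjamini-Hochberg adjustment over all of them. Ratios and figures used Python 3.11.15, scipy 1.17.1 and matplotlib 3.10.9. Read counts were recovered from the FPKM steps, with the scale of the totals from GENCODE 29 exon lengths. A whole-number length (tolerance 0.02 reads) was found for 40377 genes, including all 44 collagen chains, and it equalled the GENCODE 29 length in 60.0% of the genes and for 11 of the chains. Recovered counts cover counting error only. Replicates differed by 3.97 to 13.16 times counting noise (chi-square per degree of freedom), so none was a library deposited again.

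Symbols were found for 30235 genes. RefSeq promoter windows were found for 32 of the 44 chains, and no entry was found for COL14A1, COL1A1, COL1A2, COL20A1, COL22A1, COL2A1, COL3A1, COL5A2, COL6A1, COL6A5, COL8A1 and COL9A3. The members, gene lists and partner ratios were chosen with earlier results of these data known. Values in every library are given for chains called, all type IV chains, the 2 most abundant fibrillar, FACIT and other chains, and chains with an adjusted p under 0.05 and an absolute log2 fold change of at least 0.58. COL5A1 and COL1A2 are shown as partners. COL3A1, COL8A2, COL12A1 and COL17A1, and the markers ACAN and MATN1, were chosen after their values were seen. Of the lists, called members are named, and otherwise up to 3 with the smallest adjusted p. On simulated data 198 of 200 changed genes were recovered among 16379 tested, with 9 false calls. The changed genes were drawn only from genes with a higher mean read level than SOX9 and LMX1B. Their simulated fold changes were all larger than those of COL2A1, SOX9 and LMX1B, so recovery of changes like these was not tested. The spread between simulated replicates was set at a fixed value and not taken from these libraries. Recovery at the read counts of COL4A3 was not tested separately. The alternatives were other pseudocounts and filters, median-ratio and quantile scaling, a replicate block, voom on recovered counts and leaving out each library.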

Additional observations from a re-analysis of the deposited data

How the results depend on the processing

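COL4A3, COL4A4, COL2A1 and COL5A2 kept their call under all 14 alternatives, with log2 fold changes between 1.37 and 3.02, 1.45 and 2.69, 1.19 and 1.48, and -2.37 and -2.16. Median-ratio rescaling made 2 chains downregulated in place of 1, with COL9A2 at -1.03. The number of collagen gene regulators called was 2, but 1 under median-ratio or quantile scaling, 0 when the pseudocount was 1, and between 1 (without control replicate 1) and 2 when a library was left out. The number of collagen receptors called was 0, but 1 (ADGRG1) with no filter, and between 0 and 1 (without control replicate 1) when a library was left out. Without 1 library, chains higher at any fold numbered 6 to 9 and chains lower 5 to 7, and they numbered 6 and 5 without control replicate 3. Differences near 0 changed sign. COL11A1 ran from -0.17 to 0.014 over the left-out libraries, positive without SAR replicate 2. COL11A2 was -0.028 under median-ratio and -0.16 under quantile scaling, and ran from -0.098 to 0.29 over the left-out libraries, negative without SAR replicate 3 (-0.048) or control replicate 2. COL1A2 ran from -0.17 to 0.043, positive without SAR replicate 1 or control replicate 2 (0.023). COL13A1 lost an adjusted p under 0.05 under 7 alternatives, COL18A1 under 4 and COL4A5 and COL23A1 under 2 each. Same-numbered samples did not deviate together (correlations of 0.073, 0.003 and 0.025), so the numbers were not taken as pairs, and with a replicate block 3 chains were upregulated, 1 downregulated, 9 higher and 6 lower. The causes were not tested. The 14 chains under 0.5 FPKM were left out by that minimum and not by a test of depth, and COL3A1 and COL6A5 had 0 reads in some libraries.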

Other observations

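Other loci named after collagen genes were not members of the family by the rule. COL6A4P2, a pseudogene of a type VI chain, was at 2.67, 3.83 and 2.52 FPKM in control and at 1.21, 0.946 and 1.43 FPKM with SAR, and fell by 1.26 on the log2 scale (SE 0.200, adjusted p = 0.00505, limma), with 63 to 367 recovered reads a library. How the counting treated reads shared between a pseudogene and related genes is not given in the sources used here. COL4A2-AS1, antisense to COL4A2, was at 0.520 ± 0.232 FPKM in control and 0.602 ± 0.139 FPKM with SAR (n = 3 in each group), with an adjusted p of 0.636 from limma and 3 to 10 reads. COL5A1-AS1 was not tested, with 5 to 6 reads in control and 1 to 3 with SAR. COL6A4P1, COL25A1-DT, COL4A2-AS2, COL6A2-DT, COL18A1-AS1 and COL18A1-AS2 were not tested either, with at most 18 reads in any library. Without a stated strand setting, reads of an antisense gene and its partner cannot be told apart where their exons overlap.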
